A study of Mus musculus with 7 samples.

Results

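The livers in this study were profiled for 37 genes of blood coagulation and fibrinolysis, taken by gene symbol from a read-count table of 14889 genes, and the table held all 37. They comprised 9 clotting factors and cofactors, 3 fibrinogen chains, 5 genes of the contact system, 11 inhibitors, 6 genes of fibrinolysis and 3 genes of the vitamin K cycle. Of these, 36 passed the filter on low counts and were tested. Every mouse lacked Apoe (genotype ApoE-/-, strain C57BL/6), was 4 months old and had eaten Western diet over 3 months. The PX-478 group (n = 3) received the HIF1a inhibitor PX-478 by intraperitoneal injection, 40 mg/kg bi-weekly, and the saline group (n = 4) received saline by the same route and schedule. The Apoe deletion and the diet were common to both groups, and no Apoe-sufficient or chow-fed mice were part of the comparison. PX-478 lowers the protein of the oxygen-sensitive transcription factor subunit HIF1a, so the deposited mRNA counts do not measure its target directly.

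Coagulation is a cascade of circulating proteases. Tissue factor with factor VII starts it, the contact system can also start it on surfaces, and both routes lead through factor X to thrombin, which cuts fibrinogen into fibrin. Hepatocytes make most of these plasma proteins, vitamin K-dependent carboxylation finishes several of them, and liver sinusoidal endothelium makes factor VIII and other vessel-wall components. Antithrombin, heparin cofactor II, the protein C system and tissue factor pathway inhibitor restrain the cascade, and plasmin dissolves the clot.

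The 7 libraries held 10285776 to 17257304 counted reads. PX-478 replicate 2 was the shallowest library, had the lowest share of mitochondrially encoded reads (22.4%, against 27.1 to 36.7% in the other 6) and received the highest scaling factor. Levels are given as CPM, read counts per 1000000 counted reads after that scaling, by trimmed mean of M-values (TMM), and log2 fold changes are PX-478 over saline with standard errors (SE) from edgeR's quasi-likelihood fit. A count of 3 reads corresponded to 0.188 to 0.260 CPM. All 8 hepatocyte markers checked were detected in every library, with the albumin gene Alb at 16740 to 22560 CPM in PX-478 livers and 19240 to 25850 CPM in saline livers. Of these markers 2 had a positive and 6 a negative log2 fold change and none was called. The transthyretin gene Ttr was the 1 hepatocyte marker whose groups did not overlap, at 2207 to 2581 CPM in PX-478 livers and 2968 to 4157 CPM in saline livers (log2 fold change -0.57, adjusted p = 0.620). Of all genes, 4.29% did not overlap in that direction, and the Ttr groups overlapped with libraries scaled by size alone. The part of hepatocyte content in the values of the coagulation genes was not tested. In bulk liver, fewer cells of a type and less RNA per cell cannot be told apart.

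None of the 36 tested genes passed the threshold of an adjusted p under 0.05 over all genes tested. The background was small in the same fit, in which 1 of 13693 genes (0.0073%), the adipsin gene Cfd, was called. DESeq2 called 82 of 14880 genes (0.551%) and again none of the 37 coagulation and fibrinolysis genes. At an unadjusted p under 0.05, 1 of the 36 was higher in PX-478 livers, where 3.48% of all genes were, and none was lower, where likewise 3.48% of all genes were. Levels that did not overlap between the groups were found for 1 of the 36 in the higher direction, against 4.3% of all genes, and for none in the lower direction, against 4.29% of all genes. The 1 gene was Tfpi in both counts.

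The estimated differences were small for most of the genes. The log2 fold change was above 0 for 13 of the 36 and below 0 for 23, with a median of -0.03, beside -0.0035 over all genes tested, of which 50.3% were below 0. The median size of the log2 fold change regardless of sign was 0.18, against 0.25 for all genes. These transcripts were also more abundant than most, with a median average log2 CPM of 6.91 against 3.53, and their median SE was 0.23 against 0.29. The 95% interval of the log2 fold change stayed within 1 in either direction for 24 of the 36 genes, as it did for 55.3% of all genes. For those 24 genes a difference of 2-fold or more lay outside the interval, and for the other 12 the interval reached 2-fold in at least 1 direction. As a description, the median SD between libraries on the log2(CPM + 0.5) scale was 0.302 in PX-478 livers and 0.310 in saline livers for these genes, and 0.315 and 0.344 over all genes.

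**Figure D1:**
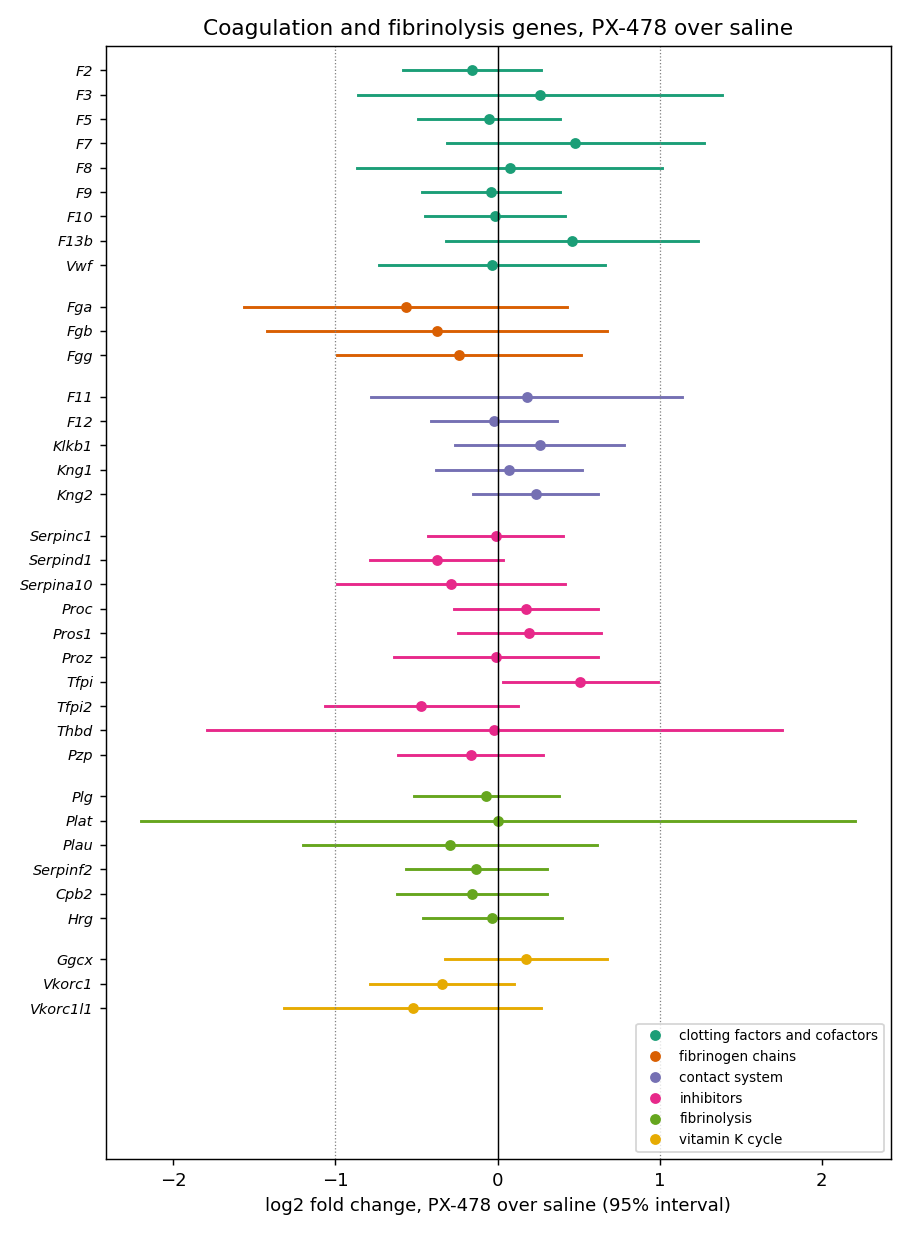
Log2 ratio of PX-478 to saline levels (horizontal axis) for the 36 tested genes, grouped by role; points are estimates of edgeR's quasi-likelihood fit and bars their 95% intervals, with dotted lines at -1 and 1. Every interval other than that of Tfpi crosses 0, and those of Plat and Thbd are the widest.

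The 3 fibrinogen chains ranked the libraries of each group in the same order, and none of them passed the test between groups. Fibrinogen, the precursor of fibrin, is a dimer of Aα, Bβ and γ chains encoded by Fga, Fgb and Fgg, and is an acute-phase protein whose synthesis interleukin-6 raises in hepatocytes. On mm10 the genes are neighbours on chromosome 3, Fgg at chr3:83007724-83015056 and Fga at chr3:83026153-83033627 on the plus strand and Fgb at chr3:83042246-83049863 on the minus strand. Their promoters are shown because the 3 mRNAs shared that order, and a part of interleukin-6 in that order was not tested. Each line gives the 250 bases before the RefSeq start (assembly GRCm38.p6, which shares its coordinates with mm10), 5′ to 3′ on the gene's own strand, with the hexamer CTGGGA, the core of the interleukin-6 response element, in capitals. The windows are chr3:83025903-83026152 for Fga, chr3:83049864-83050113 for Fgb and chr3:83007474-83007723 for Fgg.
Fga: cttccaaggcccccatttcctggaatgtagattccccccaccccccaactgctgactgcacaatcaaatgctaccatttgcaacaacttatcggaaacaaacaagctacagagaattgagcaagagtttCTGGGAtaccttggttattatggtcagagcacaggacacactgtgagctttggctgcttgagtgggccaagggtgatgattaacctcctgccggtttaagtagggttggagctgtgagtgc
Fgb: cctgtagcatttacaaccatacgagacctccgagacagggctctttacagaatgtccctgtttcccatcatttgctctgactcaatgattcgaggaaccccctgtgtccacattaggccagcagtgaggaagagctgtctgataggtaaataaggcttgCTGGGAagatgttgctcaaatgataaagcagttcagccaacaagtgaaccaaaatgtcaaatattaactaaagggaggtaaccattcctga
Fgg: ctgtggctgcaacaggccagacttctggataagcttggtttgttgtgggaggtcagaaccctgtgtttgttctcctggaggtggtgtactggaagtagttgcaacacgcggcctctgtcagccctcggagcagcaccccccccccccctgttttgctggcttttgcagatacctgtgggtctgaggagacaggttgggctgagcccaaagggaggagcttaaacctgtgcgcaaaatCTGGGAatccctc

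The hexamer stood 121 to 116 bases before the start in Fga, 91 to 86 in Fgb and 13 to 8 in Fgg, on the plus strand of the gene each time. Searched on both strands, CTGGGA was present in 27.0% of all 32851 promoter windows of this length and in 11 of the 29 coagulation and fibrinolysis genes that had a sequence (F10, F9, Fga, Fgb, Fgg, Klkb1, Pros1, Serpina5, Serpind1, Tfpi and Tfpi2). The hexamer GTTAAT, part of the binding site of the liver factor HNF1, was present in Fga and Fgb and in 6 of the 29, against 6.43% of all windows. The C/EBP core TTGCNNAA was also found in Fga and Fgb and in 9 of the 29, against 9.56% of all windows. The HNF4 core CAAAGTCC was in none of the 29 and in 1.2% of all windows. No match of one of these motifs overlapped another in the 3 fibrinogen windows. These are letter matches in a window, not measured binding sites.

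Fga, the Aα chain, was at 448.6, 678.9 and 292.8 CPM in PX-478 replicates 1 to 3, against 480.4, 314.0, 803.3 and 1206 CPM in saline replicates 1 to 4. Fgb, the Bβ chain, was at 194.5, 261.6 and 179.7 CPM in PX-478 livers, against 157.8, 124.7, 278.1 and 538.9 CPM in saline livers. Fgg, the γ chain, was at 480.3, 719.0 and 386.2 CPM in PX-478 livers, against 449.4, 350.2, 682.1 and 1012 CPM in saline livers. The groups overlapped for each chain, and saline replicate 4 was the highest of the 7 libraries for all 3. Among PX-478 livers replicate 2 was the highest and replicate 3 the lowest for all 3 chains, and among saline livers the order of replicates 4, 3, 1 and 2 was the same for all 3.

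The group means were 473.4 ± 194.2 CPM in PX-478 livers and 701 ± 393 CPM in saline livers for Fga (SD, n = 3 and 4). They were 212 ± 43.6 and 275 ± 188 CPM for Fgb, and 528.5 ± 171.5 and 623 ± 294 CPM for Fgg, in PX-478 and saline livers. Fga had the largest fold change in size of the 36 genes, at -0.57 on the log2 scale (SE 0.44, adjusted p = 0.840). Fgb gave -0.38 (SE 0.46, adjusted p = 0.895) and Fgg gave -0.24 (SE 0.34, adjusted p = 0.911). None of the chains passed the test, and the spread within the saline group, 3.84-fold between its highest and lowest library for Fga, 4.32-fold for Fgb and 2.89-fold for Fgg, was larger than the difference between the group means. Without saline replicate 4 the log2 fold changes were -0.17 for Fga, 0.18 for Fgb and 0.10 for Fgg, so the sign for Fgb and Fgg rested on that library.

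The chains were also compared with each other within a library. The ratio of Fga to Fgg in CPM was 0.934, 0.944 and 0.758 in PX-478 livers, against 1.07, 0.897, 1.18 and 1.19 in saline livers, so the groups overlapped. The ratio of Fgb to Fgg was 0.405, 0.364 and 0.465 in PX-478 livers, against 0.351, 0.356, 0.408 and 0.533 in saline livers. The summed level of the 3 chains was 1123, 1659 and 858.7 CPM in PX-478 livers, against 1088, 788.9, 1764 and 2757 CPM in saline livers. All 37 genes together took 1.1, 1.40 and 1.06% of the unscaled reads in PX-478 livers, and 1.11, 1.03, 1.11 and 1.18% in saline livers. After TMM scaling their sum was 10720, 10900 and 11970 CPM in PX-478 livers, against 11890, 9808, 12400 and 12190 CPM in saline livers.

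**Figure D2:**
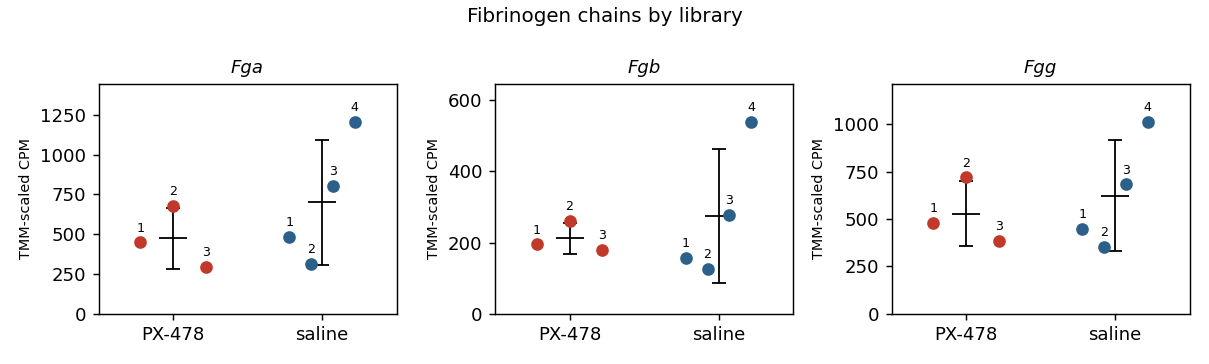
TMM-scaled CPM of Fga, Fgb and Fgg (vertical axes, from 0) in each library, PX-478 on the left and saline on the right of each panel, numbered by replicate; lines show the mean and bars 1 SD (n = 3 and 4). Saline replicate 4 is highest in every panel, at 1206, 538.9 and 1012 CPM, and the other libraries of both groups overlap.

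The 9 clotting factors and cofactors did not differ between the groups by the test. Of the 9, 4 had a positive and 5 a negative log2 fold change, between -0.16 and 0.48 with a median of -0.02, and the lowest adjusted p was 0.822. Prothrombin mRNA (F2), the precursor of thrombin, was at 430.2, 492.9 and 610.0 CPM in PX-478 livers, against 620.0, 525.8, 609.3 and 526.5 CPM in saline livers (log2 fold change -0.16, SE 0.20). Factor X (F10), which activates prothrombin, was at 360.6, 332.1 and 482.8 CPM in PX-478 livers, against 397.0, 354.3, 455.3 and 380.6 CPM in saline livers. Its log2 fold change was -0.02 with a 95% interval of -0.45 to 0.41, and the groups overlapped. F5, the cofactor of factor X, was at 179.7 to 289.9 CPM in PX-478 livers and 219.4 to 245.2 CPM in saline livers, and F9, the protease missing in haemophilia B, at 67.9 to 88.6 CPM and 65.0 to 95.5 CPM, with log2 fold changes of -0.05 and -0.04 (SE 0.20 for each).

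Factor VII and the factor XIII B subunit varied more. F7, the protease that pairs with tissue factor, was at 114.7, 56.1 and 139.5 CPM in PX-478 livers, against 93.5, 79.8, 36.5 and 86.8 CPM in saline livers. Its log2 fold change was 0.48 (SE 0.36, adjusted p = 0.822). F13b, which carries the fibrin-crosslinking factor XIII in plasma, was at 69.5, 24.2 and 57.6 CPM in PX-478 livers, against 40.4, 52.4, 25.2 and 29.2 CPM in saline livers, and its log2 fold change was 0.46 (SE 0.35, adjusted p = 0.834). For both genes the groups overlapped because PX-478 replicate 2 lay near or below the saline libraries.

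F8, Vwf and F3, whose products are known mainly from endothelium or other non-hepatocyte cells, were at low levels. F8, the cofactor missing in haemophilia A, was at 4.25, 3.86 and 3.26 CPM in PX-478 livers, against 3.84, 5.20, 1.39 and 4.01 CPM in saline livers. Vwf, the carrier of factor VIII and a platelet adhesion protein, was at 8.64, 7.11 and 7.44 CPM in PX-478 livers, against 6.64, 5.38, 6.61 and 12.9 CPM in saline livers. F3, tissue factor, was at 3.76, 2.87 and 7.77 CPM in PX-478 livers, against 4.56, 4.68, 1.06 and 5.76 CPM in saline livers. The groups overlapped for all 3 genes, with log2 fold changes of 0.07 (SE 0.43), -0.03 (SE 0.32) and 0.26 (SE 0.52), and the 95% intervals of F8 and F3 reached past 1 on the log2 scale.

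Of the 5 genes of the contact system, which starts clotting on negatively charged surfaces and releases bradykinin from kininogen, 4 had a positive and 1 a negative log2 fold change, with a median of 0.18 and no gene called (lowest adjusted p = 0.826). F12, the factor that starts the system, was at 454.6, 415.9 and 497.2 CPM in PX-478 livers, against 491.7, 422.9, 470.9 and 466.7 CPM in saline livers. Its log2 fold change was -0.02 with a 95% interval of -0.41 to 0.37, and the SD of log2 levels was 0.129 in PX-478 livers and 0.092 in saline livers. Kng2, one of a pair of mouse kininogen genes, was at 443.9, 536.8 and 496.3 CPM in PX-478 livers, against 411.2, 427.4, 443.9 and 391.3 CPM in saline livers, so that the lowest PX-478 library and the highest saline library met at the same value. Its log2 fold change was 0.23 (SE 0.18, adjusted p = 0.826). Kng1 was at 1565 to 2033 CPM in PX-478 livers and 1465 to 2060 CPM in saline livers (log2 fold change 0.07, SE 0.21). Kng1 and Kng2 are close copies lying next to each other and to Hrg on chromosome 16, so the split of reads between the copies is uncertain.

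Klkb1, which encodes plasma prekallikrein, was at 419.9, 266.0 and 441.6 CPM in PX-478 livers, against 319.9, 352.5, 365.3 and 216.4 CPM in saline livers (log2 fold change 0.26, SE 0.24). F11, the contact-activated protease next to Klkb1 on chromosome 8, was at 100.2, 43.7 and 132.9 CPM in PX-478 livers, against 133.4, 72.5, 44.6 and 75.1 CPM in saline livers (log2 fold change 0.18, SE 0.42). F11 spanned a 3.06-fold range over the 7 libraries and both groups covered most of it, whereas F12 spanned 1.2-fold.

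Of the 11 inhibitors, 10 were tested, with 3 positive and 7 negative log2 fold changes, a median of -0.02 and no gene called. Tfpi, tissue factor pathway inhibitor, which blocks the factor VIIa-tissue factor complex and factor Xa, lies at chr2:84432855-84476775. It was at 12.7, 13.3 and 11.9 CPM in PX-478 livers, against 8.60, 9.54, 7.67 and 9.65 CPM in saline livers. The 3 PX-478 libraries were above all 4 saline libraries, from 182, 176 and 182 reads in PX-478 livers against 132, 110, 116 and 154 reads in saline livers. The means were 12.6 ± 0.720 CPM in PX-478 livers and 8.86 ± 0.927 CPM in saline livers (SD, n = 3 and 4). Tfpi was 1.42-fold higher (log2 fold change 0.51, 95% interval 0.03 to 0.99), with an edgeR p of 0.037 and an adjusted p of 0.691, so it did not pass the threshold.

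Tfpi is known from endothelium, and most sinusoidal endothelial markers had the same sign. Of the 9 markers (Stab2, Stab1, Clec4g, Lyve1, Oit3, Pecam1, Kdr, Cdh5 and Fcgr2b), 7 had a positive and 2 a negative log2 fold change and none was called, and none was at 0 in any library. The groups did not overlap for Oit3 (higher) and Pecam1 (lower), where 4.3% of all genes were separate in the higher and 4.29% in the lower direction. With libraries scaled by size alone the groups overlapped for both. The summed level of the 9 markers was 303 to 398 CPM in PX-478 livers and 252 to 334 CPM in saline livers. The part of these cells in the Tfpi values was not tested. The endothelial gene Thbd, thrombomodulin, the thrombin receptor that starts protein C activation, was at 0.836, 1.89 and 0.783 CPM in PX-478 livers, against 0.261, 0.434, 2.25 and 1.75 CPM in saline livers, from only 4 to 34 reads a library. Its 95% interval ran from -1.79 to 1.76 on the log2 scale.

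Serpind1, heparin cofactor II, was the inhibitor nearest to a call in the lower direction. It was at 119.1, 101.5 and 149.5 CPM in PX-478 livers, against 167.8, 143.8, 170.7 and 158.1 CPM in saline livers, and overlapped only through PX-478 replicate 3 and saline replicate 2. Its log2 fold change was -0.38 (SE 0.19, adjusted p = 0.736). The span of Serpind1 overlaps that of Pi4ka. Overlap of their exons was not checked and use of strand in counting is not stated, so whether their reads were kept apart is unknown. Tfpi2, a Kunitz-type inhibitor related to Tfpi, was at 22.6, 26.6 and 12.5 CPM in PX-478 livers, against 38.6, 27.1, 21.2 and 27.1 CPM in saline livers (log2 fold change -0.47, SE 0.28, adjusted p = 0.769).

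The main plasma anticoagulants differed little. Serpinc1, antithrombin, the chief inhibitor of thrombin, was at 1077, 1072 and 1147 CPM in PX-478 livers, against 1252, 1077, 1155 and 947 CPM in saline livers, with a log2 fold change of -0.01 and a 95% interval of -0.43 to 0.40. Proc, protein C, was at 992.7, 753.1 and 1091 CPM in PX-478 livers, against 905.8, 830.3, 896.6 and 718.6 CPM in saline livers (log2 fold change 0.17, SE 0.21), and its cofactor Pros1, protein S, was at 36.0, 46.0 and 53.0 CPM in PX-478 livers, against 45.2, 38.0, 30.5 and 43.4 CPM in saline livers (log2 fold change 0.20, SE 0.20). The groups overlapped for each of these genes. Pzp, the mouse broad-range protease inhibitor of the alpha-2-macroglobulin family, was at 848 to 1018 CPM in PX-478 livers and 796 to 1152 CPM in saline livers.

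The protein Z pathway, in which Proz (protein Z) helps Serpina10 to inhibit factor Xa, gave log2 fold changes of -0.01 (SE 0.29) for Proz and -0.29 (SE 0.32) for Serpina10. Serpina10 was at 63.5, 146.1 and 75.6 CPM in PX-478 livers, against 81.9, 83.9, 150.2 and 148.7 CPM in saline livers. PX-478 replicate 2 thus stood with saline replicates 3 and 4, away from the other libraries of its own group. Serpina5, protein C inhibitor, which in mice is known mainly from the reproductive tract, had 8 reads in PX-478 replicate 2 and 7 reads in saline replicate 4 and none in the other 5 libraries, and did not pass the count filter.

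**Figure D3:**
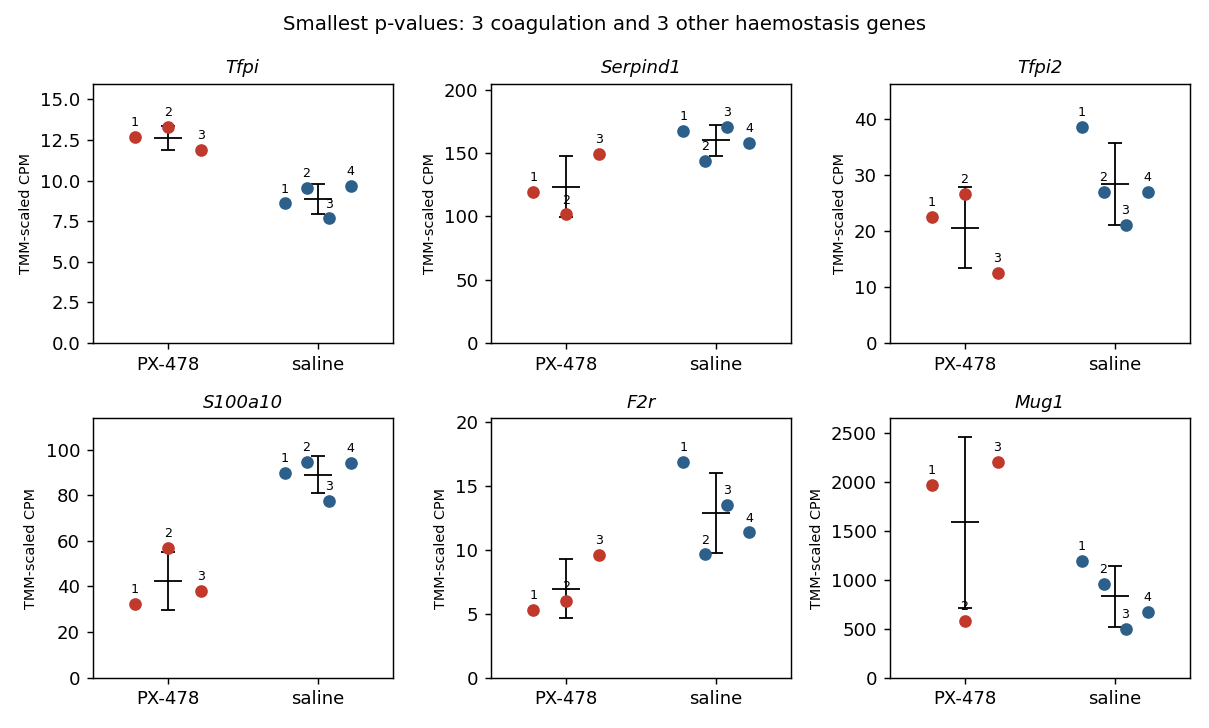
TMM-scaled CPM by library (vertical axes, from 0) of Tfpi, Serpind1 and Tfpi2 and of the other haemostasis genes S100a10, F2r and Mug1, PX-478 on the left of each panel, numbered by replicate; lines show the mean and bars 1 SD (n = 3 and 4). The groups are separate for Tfpi, S100a10 and F2r and overlap for the rest.

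Fibrinolysis showed no difference by the test either, with 1 positive and 5 negative log2 fold changes, a median of -0.10 and a lowest adjusted p of 0.902. Plg, plasminogen, the precursor of plasmin, was at 938.9, 806.6 and 1133 CPM in PX-478 livers, against 1187, 861.7, 979.6 and 999.2 CPM in saline livers (log2 fold change -0.07, 95% interval -0.52 to 0.38). Its inhibitor Serpinf2, alpha-2-antiplasmin, was at 442.8, 384.7 and 484.3 CPM in PX-478 livers, against 561.3, 395.4, 534.5 and 423.2 CPM in saline livers (log2 fold change -0.13, SE 0.20). The groups overlapped for both genes. Cpb2, a carboxypeptidase that slows fibrin lysis, was at 57.8 to 77.6 CPM in PX-478 livers and 55.2 to 93.1 CPM in saline livers, and Hrg, a histidine-rich plasminogen-binding protein, at 317 to 467 CPM and 403 to 450.5 CPM. Their log2 fold changes were -0.16 and -0.03.

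The plasminogen activators were at low levels in liver. Plat, tissue plasminogen activator, had 14, 18 and 0 reads in PX-478 livers, against 14, 5, 8 and 19 reads in saline livers, and its 95% interval ran from -2.2 to 2.2 on the log2 scale. Plau, urokinase, was at 1.95, 3.48 and 2.22 CPM in PX-478 livers, against 2.21, 3.99, 3.70 and 2.63 CPM in saline livers (log2 fold change -0.30, SE 0.42). Its 95% interval of -1.20 to 0.61 was narrower than that of Plat and reached 2-fold in the lower direction.

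The vitamin K cycle supports the carboxylation of factors II, VII, IX and X and of proteins C, S and Z. Ggcx, the carboxylase, was at 53.6, 28.8 and 40.7 CPM in PX-478 livers, against 39.2, 31.6, 30.4 and 43.9 CPM in saline livers (log2 fold change 0.18, SE 0.23). Vkorc1, the warfarin-sensitive reductase that recycles vitamin K, was at 36.1, 57.0 and 59.0 CPM in PX-478 livers, against 74.9, 60.7, 63.7 and 58.0 CPM in saline livers (log2 fold change -0.34, SE 0.21, adjusted p = 0.775). The groups overlapped through PX-478 replicate 3 and saline replicate 4 alone. Its paralog Vkorc1l1 was at 5.16, 4.69 and 2.74 CPM in PX-478 livers, against 5.54, 3.56, 8.20 and 6.77 CPM in saline livers (log2 fold change -0.52, SE 0.37, adjusted p = 0.808).

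Levels of different genes were compared per kilobase of the longest principal transcript, so their order depends on that choice of length. On that scale Kng1 was the highest of the 37 genes, at a mean of 1001 CPM per kilobase in PX-478 livers and 955 in saline livers, followed by Proc at 600.3 and 532. Fgg averaged 312 CPM per kilobase in PX-478 livers and 368 in saline livers, and Plg 348 and 365, so Plg was above Fgg in PX-478 livers and below it in saline livers. F2 averaged 257 CPM per kilobase in PX-478 livers and 287 in saline livers, and Fga 183 and 271. The lowest tested genes were Plat at 0.309 and 0.303, Thbd at 0.314 and 0.315, F8 at 0.387 and 0.369 and Vwf at 0.875 and 0.892.

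2 patterns across the libraries, chosen after the values were seen and given without a test, ran through several roles. PX-478 replicate 2 and saline replicate 3 held the 2 lowest levels of 6 of the 36 genes (F3, F7, F13b, F11, Proz and Ggcx), and of 7.38% of all 13693 genes. Saline replicate 4 held the highest level of 5 of the 36 (F9, Vwf, Fga, Fgb and Fgg), and of 10.5% of all genes. F7, F10 and Proz lie next to each other on chromosome 8 (F7 at chr8:13025506-13035809, F10 at chr8:13037308-13056676 and Proz at chr8:13060584-13076026), yet F10 did not have its 2 lowest levels in those libraries. Without PX-478 replicate 2 and saline replicate 3 together, also chosen after seeing the data, F7 gave a log2 fold change of 0.55 and F13b of 0.65, and still none of the 36 genes was called. The adjusted p values were 0.442 for F7 and 0.469 for F13b. Leaving out 1 library at a time, the log2 fold change was 0.20 without PX-478 replicate 3, 0.25 without saline replicate 3 and 0.78 without PX-478 replicate 2 for F7, and 0.16 without PX-478 replicate 1, 0.31 without saline replicate 3 and 0.79 without PX-478 replicate 2 for F13b.

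**Figure D4:**
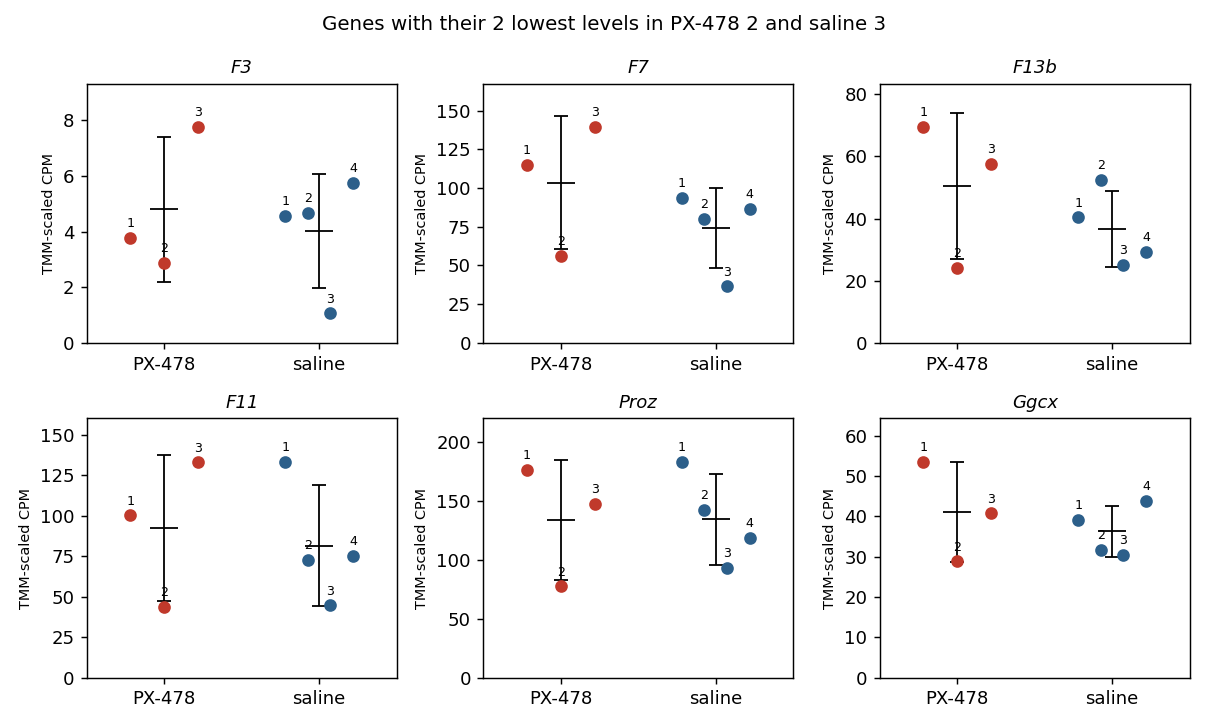
TMM-scaled CPM by library (vertical axes, from 0) of the 6 genes with their 2 lowest levels in PX-478 replicate 2 and saline replicate 3, PX-478 on the left of each panel, numbered by replicate; lines show the mean and bars 1 SD (n = 3 and 4). For F7 these libraries are at 56.1 and 36.5 CPM, below the other 5 libraries, and both groups overlap in every panel.

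**Figure D5:**
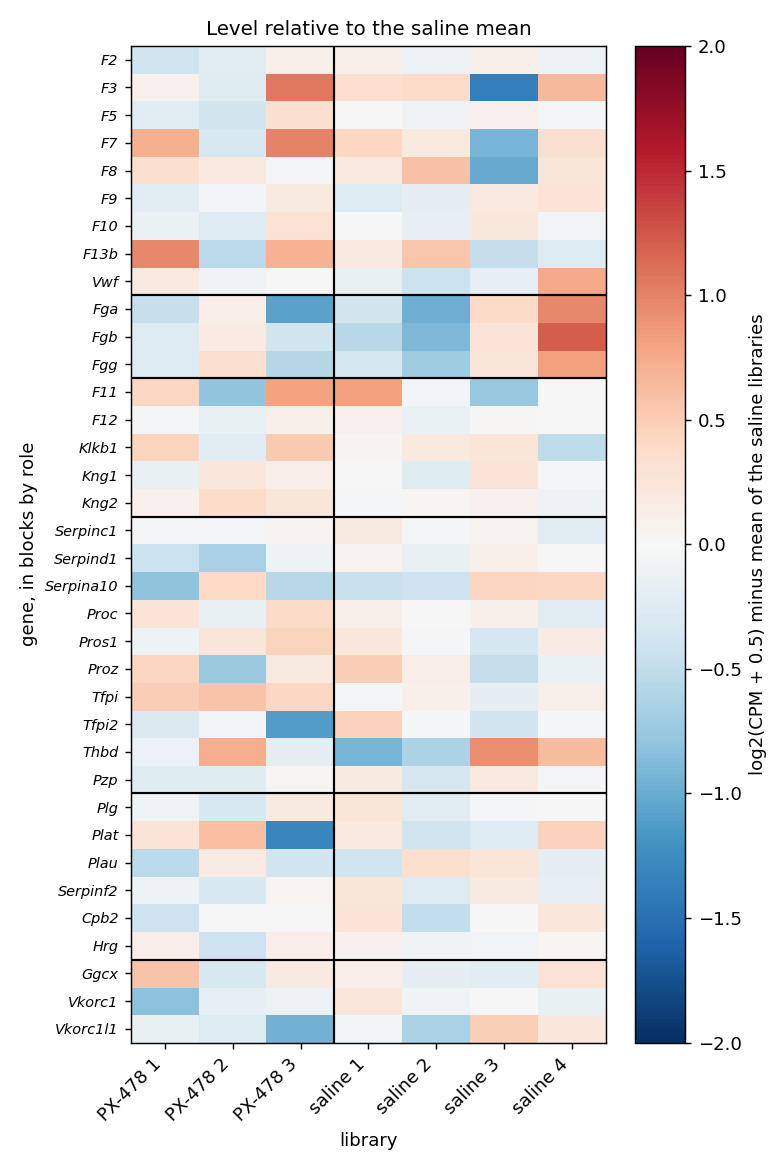
Level of the 36 tested genes (rows, in blocks by role) in each library (columns, PX-478 left of the line), as log2(CPM + 0.5) minus the mean of the saline libraries. The values shown run from -1.36 to 1.21, and within each block the columns differ between libraries of a group as well as between groups.

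Another 36 genes of haemostasis outside the list were examined for context, of which 31 were in the table and 30 were tested. Of these 30, 16 had a positive and 14 a negative log2 fold change, with a median of 0.07, none was called by edgeR at the threshold above and 2 had an unadjusted p under 0.05, where 6.97% of all genes did. S100a10, which with annexin A2 forms a plasminogen receptor on cell surfaces, was at 32.4, 56.7 and 37.9 CPM in PX-478 livers, against 89.7, 94.7, 77.5 and 94.3 CPM in saline livers. No PX-478 library reached the saline range, and the log2 fold change was -1.07 (SE 0.21, adjusted p = 0.195). DESeq2 gave it an adjusted p of 0.00347. Without PX-478 replicate 2 and saline replicate 3 together, edgeR gave -1.40 with an adjusted p of 0.0224. That pair was chosen after the data were seen and held its highest PX-478 and lowest saline level, so the gap widened by construction. With libraries scaled by size alone the groups of S100a10 overlapped and the log2 fold change was -0.89 (adjusted p = 0.574). Its partner Anxa2 was at 13.5, 25.9 and 8.42 CPM in PX-478 livers and 12.2, 14.3, 15.4 and 17.5 CPM in saline livers.

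F2r, the thrombin receptor PAR1, was at 5.30, 5.98 and 9.59 CPM in PX-478 livers, against 16.9, 9.63, 13.5 and 11.3 CPM in saline livers. The groups did not overlap, though PX-478 replicate 3 and saline replicate 2 were nearly level, and the log2 fold change was -0.88 (SE 0.29, adjusted p = 0.569). Markers of Kupffer cells and macrophages had the same sign as S100a10 and F2r, since 8 of 8 had a negative log2 fold change, none was called and none was at 0, and their sum was 240 to 352 CPM in PX-478 livers and 253 to 544 CPM in saline livers. The groups did not overlap for 3 of the 8, all lower, under TMM or library size alone. Under TMM this held for 4.29% of all genes in the lower direction, and for library size alone the share was not counted. Lyz2 was at 24.3 to 28.5 CPM in PX-478 livers and 38.6 to 71.4 CPM in saline livers (log2 fold change -1.12, adjusted p = 0.179). Cd68 was at 12.7 to 14.6 CPM in PX-478 livers and 21.4 to 29.3 CPM in saline livers (-0.91 on the log2 scale, adjusted p = 0.264), and Vsig4 at 6.05 to 9.47 CPM in PX-478 livers and 11.5 to 20.2 CPM in saline livers (-0.94, adjusted p = 0.481). Red cell markers (4 of 4 tested) and the low-count T and B lymphocyte markers (3 of 3 tested) also had a negative log2 fold change. Among stellate cell markers 5 of 7 had a positive one, and among sinusoidal endothelial markers 7 of 9. The part of any of these cell types in the S100a10 and F2r values was not tested.

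Mug1, a murinoglobulin protease inhibitor, was at 1966, 582 and 2206 CPM in PX-478 livers, against 1195, 953.7, 497 and 673 CPM in saline livers (log2 fold change 0.93, SE 0.44, adjusted p = 0.728). It has a close copy in Mug2, which gave -0.15 (SE 0.68), and the split of reads between them is uncertain. Gas6, a vitamin K-dependent ligand of the TAM receptors, was at 72.7, 103.2 and 74.0 CPM in PX-478 livers, against 46.8, 69.0, 47.2 and 81.4 CPM in saline livers (log2 fold change 0.45, SE 0.23, adjusted p = 0.737). Markers of platelets and megakaryocytes, which carry several haemostatic proteins, summed to 17.6 to 27.9 CPM in PX-478 livers and 10.7 to 18.6 CPM in saline livers. Most of that sum was Itga2b, with means of 14.5 CPM in PX-478 livers and 10.7 CPM in saline livers. The other markers were at low levels, the highest mean being 2.79 CPM for Pf4 in PX-478 livers. All 5 of 5 tested markers had a positive log2 fold change and none was called, and Pf4 and Gp1bb were at 0 in at least 1 library.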

How the data were processed

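Liver RNA of 7 mice was sequenced, 3 given PX-478 and 4 given saline, grouped by sample title. The authors deposited a table of read counts per gene, not normalized, with 2 count columns for each sample. Per the submitters' processing notes, which give no versions, featureCounts, edgeR and the build mm10 were used. No aligner is named in them. The columns of a sample differed by less than the sampling noise (chi-square per gene 0.291 to 0.765, against 49.2 to 146 between libraries of a group), so they were counted as 1 sample, as their rounded mean. The table's 7 columns of averages per sample were left out.

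Genes were filtered with filterByExpr, which left 13693 of 14889, scaled by TMM, and compared with edgeR 4.0.16 (R 4.3.3), the robust quasi-likelihood F test, without covariates. The Benjamini-Hochberg adjustment ran over every gene in the fit, a call needed an adjusted p under 0.05, and the biological coefficient of variation was 0.325. The labels do not say whether libraries came from separate cages or batches. The p-values therefore reflect the spread among these 7 mice, in which variation between animals and technical variation cannot be told apart. Alternatives used DESeq2 1.42.0, limma 3.58.1, other scalings, filters and columns, a replicate block, and each library left out. Intervals cover 95%.

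Levels per kilobase used the longest principal transcript of GENCODE vM21. Of the gene IDs, 14492 matched the RefSeq table of GRCm38.p6, which gave positions and, with RefSeq promoters, sequences. Use of strand in counting is not stated, and overlap was checked for whole gene spans, not for exons. Whether reads were kept apart for genes with overlapping spans (F2 and Ckap5, Serpind1 and Pi4ka, Proz and Pcid2, Ggcx and Mat2a, F8 and Fundc2) is therefore unknown. The genes and lists were chosen with earlier results of these data known. All 37 genes were named, and of 36 other haemostasis genes those past the threshold and the 4 with the smallest p. Cfd, Anxa2 and single marker genes were named after their values were seen.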

Additional observations from a re-analysis of the deposited data

Results flagged for a closer look

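Vwf in saline livers was at 12.9 CPM in saline replicate 4, against 5.38 to 6.64 CPM in the other 3 saline libraries. The gap to the nearest library was 0.832 of the group's range, just above Dixon's critical value at the 95% level for 4 values. It was the 1 value so marked among 40 genes checked in the saline group, and a test at this level marks about 5% of groups by chance.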

How the results depend on the processing

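No coagulation or fibrinolysis gene passed the threshold under any of the 21 alternatives. Over the 36 genes and the 4 other named ones, 764 of 840 values kept the reported direction and 76, in 20 genes, had the opposite. S100a10 passed the threshold under 2 alternatives, both given above, of which 1 left out its highest PX-478 and its lowest saline library. The 0 genes higher and 1 lower over all genes became 46 and 36 with DESeq2, 4 and 1 with library size alone, 0 and 0 with limma-voom, and 9 and 6 without PX-478 replicate 2 and saline replicate 3 together, a setting chosen after seeing the data. Leaving out 1 library gave 0 to 4 genes higher (4 without saline replicate 4 or PX-478 replicate 2, 2 without PX-478 replicate 3) and 1 to 3 lower (3 without PX-478 replicate 3). Scaling by library size alone raised the median log2 fold change of all genes to 0.145, and with it F5 (0.059), F9 (0.10), F10 (0.11), Vwf (0.11), F12 (0.12), Serpinc1 (0.14), Proz (0.079), Thbd (0.23), Plg (0.056), Serpinf2 (0.008), Cpb2 (0.006) and Hrg (0.084) turned positive, all but Thbd below that median. With that scaling the groups also did not overlap for Proc (higher) and Serpind1 (lower), which both overlapped under TMM. The share of all genes without overlap was not counted for library size alone. The replicate numbers did not pair the samples (correlations of deviations -0.031, -0.109 and -0.017). With a replicate block 1 gene was higher and 2 lower, none of them a coagulation gene, and the log2 fold change had the opposite sign for F9 (0.065), Vwf (0.32), Fgb (0.25), Fgg (0.10), Thbd (0.71) and Plat (-0.27). Signs also turned with limma-voom for Vwf (0.022), Thbd (0.26) and Plat (-1.22), with the first column alone for Plat (-0.026), with the second for Thbd (0.078), and with the sum of both for Plat (-0.000). Without PX-478 replicate 2 and saline replicate 3 they turned for F5 (0.11), F8 (-0.21), F9 (0.037), F10 (0.16), F12 (0.049), Serpinc1 (0.028), Proz (0.13), Plg (0.030), Plat (-0.80), Serpinf2 (0.014) and Hrg (0.11). The cause was not tested.

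Leaving out 1 library at a time, the log2 fold change ranged from -0.20 to 0.085 for F10, -0.18 to 0.53 for F11, -0.09 to 0.038 for F12, -0.27 to 0.52 for F3, -0.28 to 0.080 for F5, -0.20 to 0.30 for F8, -0.15 to 0.059 for F9, -0.62 to 0.18 for Fgb, -0.53 to 0.10 for Fgg, -0.059 to 0.38 for Ggcx, -0.12 to 0.13 for Hrg, -0.016 to 0.17 for Kng1, -0.66 to 0.59 for Plat, -0.21 to 0.041 for Plg, -0.26 to 0.27 for Proz, -0.081 to 0.052 for Serpinc1, -0.55 to 0.49 for Thbd and -0.17 to 0.31 for Vwf. Tfpi was between 0.41 and 0.66 under every alternative, with adjusted p values down to 0.624. Low counts limited Plat and Thbd most, and spread between libraries the fibrinogen chains.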
